A study of Mus musculus with 6 samples.

Results

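The genes described here are the clock output factors Dbp, Tef and Hlf, their repressor Nfil3 and the clock-driven protease gene Usp2, in mouse liver after oral dosing with polystyrene microplastics (PS-MP). These 5 genes were selected by symbol, with GENCODE M21 gene models, from the 55536 genes in each deposited file, and all 5 passed the filter on low values. They were put together with earlier results of the same PS-MP comparison known. Their levels and fold changes in that comparison are therefore given as a description, without a test of their own.

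RNA from liver was sequenced in 6 libraries of male C57BL/6 mice, an inbred strain, whose dosing began at 6 weeks of age. In the PS-MP group, 3 libraries came from mice given 0.4 mg per day by mouth on 2 occasions a week over 8 weeks. The water group, also of 3 libraries, followed the same schedule with water. The labels state neither the hour of collection, nor feeding, nor a batch, and they do not say whether the libraries of a group are separate animals, so every standard error and p-value measures the spread between these libraries.

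In liver the clock proteins CLOCK and BMAL1 bind E-box elements and drive Dbp and Tef, among others, in a daily rhythm. DBP, TEF and HLF are the PAR bZIP family, activators that carry a proline- and acid-rich stretch beside a basic leucine zipper and bind the D-box element. NFIL3 (E4BP4) is a bZIP repressor of the same element, with a rhythm opposite in phase to that of DBP, and its transcription is held down by the REV-ERB repressors through RRE elements. In liver the PAR bZIP factors are known for driving genes of haem synthesis and detoxification. USP2 removes ubiquitin from proteins, and its mRNA is among the strongly rhythmic clock outputs of liver.

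A stretch of coding sequence that the 3 activators share with the repressor is shown first, because these factors are bZIP proteins that bind one element. The stretch is the part of the Dbp coding sequence that aligned with Nfil3 (68 bases, coding bases 748 to 815 of Dbp), with the aligned bases of Tef, Hlf and Nfil3, each from the longest complete coding transcript of GENCODE M21. Capitals mark the bases that differ from Dbp.
Dbp: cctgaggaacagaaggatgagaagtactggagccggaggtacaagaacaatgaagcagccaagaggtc
Tef: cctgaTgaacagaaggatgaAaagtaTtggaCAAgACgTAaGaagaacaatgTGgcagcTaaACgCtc
Hlf: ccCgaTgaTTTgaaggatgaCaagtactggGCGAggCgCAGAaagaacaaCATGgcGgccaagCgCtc
Nfil3: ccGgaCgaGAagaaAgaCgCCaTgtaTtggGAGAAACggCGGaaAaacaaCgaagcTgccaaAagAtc
In this stretch Tef was identical to Dbp at 75.0% of bases, Hlf at 67.6% and Nfil3 at 63.2%. The longest identical run between any pair of the 4 coding sequences was 18 bases, between Tef and Hlf.

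The promoter table of RefSeq (build GRCm38.p6, windows from 250 bases before to 50 after a start) held 6 windows for the 5 genes, of which Tef had 2. They were searched on both strands for the E-box CACGTG, its variant CACGTT, the D-boxes TTATGTAA and TTACGTAA, and the RRE core AGGTCA. The letters of these motifs do not contain one another. Matches were found in 3 windows, and the bases around each match are printed. Capitals mark the match, 5′ to 3′ on the strand of the gene.
Tef, upstream start, E-box at 127 bases before the start, plus strand, chr15:81802519-81802578: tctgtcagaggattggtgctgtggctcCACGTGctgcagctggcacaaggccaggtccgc
Tef, downstream start, E-box at 138 bases before the start, plus strand, chr15:81811249-81811308: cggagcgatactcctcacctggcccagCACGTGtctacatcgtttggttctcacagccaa
Nfil3, RRE core read on the opposite strand, 12 bases before the start, minus strand, chr13:52981040-52981099: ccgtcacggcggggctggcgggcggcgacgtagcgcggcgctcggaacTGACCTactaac
Over 32851 promoter windows of 300 bases in the table, CACGTG was present in 7.15% and AGGTCA in 16.26%. The D-boxes TTATGTAA and TTACGTAA were present in 0.94% and 0.12%, and CACGTT in 4.68%. These letters were not found in the windows of Dbp, Hlf and Usp2, which says nothing of elements elsewhere in those genes.

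Dbp, an activator driven directly by CLOCK and BMAL1, was low in every water library and several times higher in every PS-MP library. The levels of Dbp (chromosome 7, 45705088 to 45710203, GRCm38) were 1.056, 3.29 and 1.63 FPKM in water replicates 1, 2 and 3 and 9.60, 11.1 and 17.1 FPKM in PS-MP replicates 1, 2 and 3. FPKM is the read number scaled to exon length and to the depth of the library. The groups did not overlap, and the lowest PS-MP level lay well above the highest water level. Mean levels were 12.6 ± 3.98 FPKM with PS-MP against 1.99 ± 1.16 with water (SD, n = 3 in each group here and below). On the scale of log2(FPKM + 0.5), which understates the change of low genes, the difference was 2.45 with a standard error of 0.33, and log2 fold changes below are on that scale.

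The spread of Dbp within water was wider than counting error. Water replicate 1 had 48 Dbp reads (95% Poisson interval 35.4 to 63.6) and water replicate 2 had 167 (142.6 to 194.3), in libraries of 15186243 and 16948343 reads. Intervals of this kind cover counting error only. On the log2 scale the pooled SD within groups was 0.55 for Dbp, and 98.5% of all genes tested had a smaller one.

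Tef, a related activator with a flatter rhythm in liver, was also higher in every PS-MP library than in any water library. The levels of Tef (chromosome 15, 81802421 to 81826863) were 9.80, 13.2 and 11.6 FPKM in water and 20.9, 22.65 and 29.7 FPKM in PS-MP, in replicate order. Mean levels were 24.4 ± 4.66 FPKM with PS-MP against 11.53 ± 1.70 with water, which gives a log2 fold change of 1.04 ± 0.15 (standard error). Tef was thus the most abundant activator in each library, and PS-MP replicate 3 held its highest level.

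Hlf, the activator with the weakest daily swing in liver, differed least. The levels of Hlf (chromosome 11, 90336536 to 90390895) were 9.12, 9.71 and 9.72 FPKM in water and 12.3, 11.2 and 14.4 FPKM in PS-MP. The groups did not overlap, though PS-MP replicate 2 lay only slightly above the water range. Mean levels were 12.6 ± 1.64 FPKM with PS-MP against 9.51 ± 0.34 with water, and the log2 fold change was 0.38 ± 0.098 (standard error).

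Nfil3, the repressor, differed the other way. The levels of Nfil3 (chromosome 13, 52967209 to 52981073) were 15.1, 11.3 and 10.4 FPKM in water and 7.39, 6.32 and 4.96 FPKM in PS-MP. Every PS-MP library was below every water library. Mean levels were 6.23 ± 1.219 FPKM with PS-MP against 12.2 ± 2.50 with water, a log2 fold change of -0.92 ± 0.17 (standard error). The read numbers ran from 150 in PS-MP replicate 3 to 464 in water replicate 1.

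Usp2 followed Dbp in size and in its spread. The levels of Usp2 (chromosome 9, 44067021 to 44095627) were 0.93, 3.82 and 1.24 FPKM in water and 8.38, 9.95 and 12.9 FPKM in PS-MP. Water replicate 2 was the high library of its group here too, and the groups did not overlap. Mean levels were 10.4 ± 2.29 FPKM with PS-MP against 1.998 ± 1.59 with water, and the log2 fold change was 2.28 ± 0.38 (standard error). The FPKM of Usp2 per FPKM of Dbp stayed between 0.75 and 1.16 over all 6 libraries. The file gives 1 value per gene, so the 7 annotated coding transcripts of Usp2 are not told apart.

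**Figure D1:**
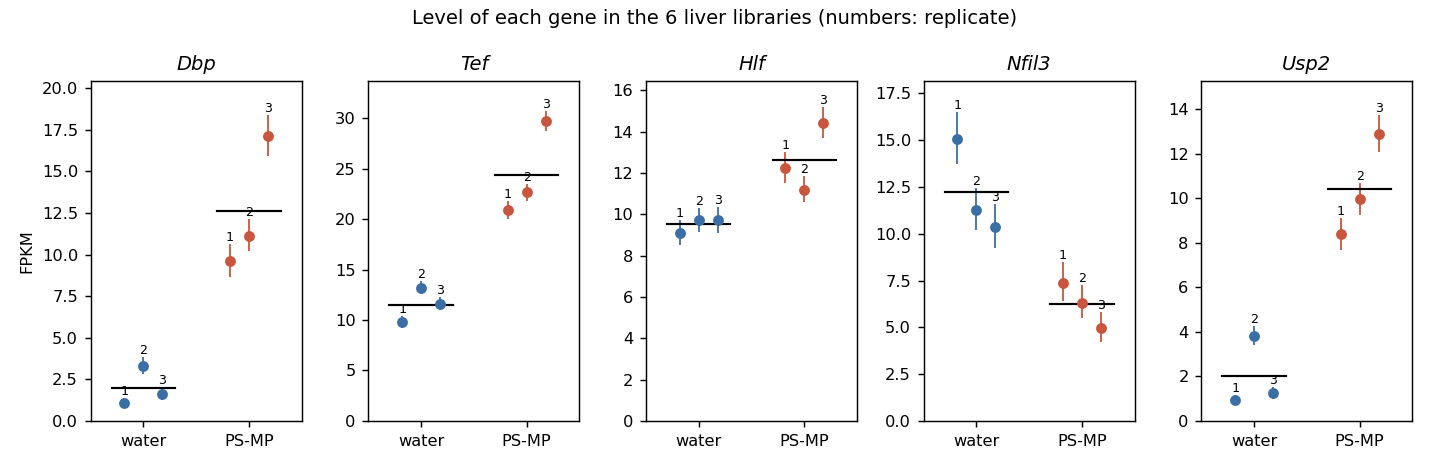
FPKM of Dbp, Tef, Hlf, Nfil3 and Usp2 in the 3 water (blue) and 3 PS-MP (red) libraries, numbered by replicate, each panel on its own axis from 0. Vertical bars are 95% Poisson intervals of the reads (counting error only) and horizontal lines are group means; Nfil3 is lower and the other genes are higher in all PS-MP libraries.

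Because the activators and NFIL3 bind the same element, their levels were also set against each other within each library, per length in FPKM. The summed level of Dbp, Tef and Hlf was 19.97, 26.2 and 23.0 FPKM in water and 42.8, 44.98 and 61.3 FPKM in PS-MP. Divided by the level of Nfil3, the sum was 1.32, 2.32 and 2.21 in water and 5.78, 7.12 and 12.3 in PS-MP. Activator mRNA thus exceeded Nfil3 mRNA in all 6 libraries, by more in each PS-MP library than in any water library. The mean ratio was 8.42 ± 3.47 with PS-MP against 1.95 ± 0.55 with water.

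Taken 1 activator at a time, Dbp and Hlf lay below Nfil3 in every water library and above it in every PS-MP library, and Dbp started from much further below. The log2 ratio of Dbp to Nfil3 was -3.84, -1.78 and -2.67 in water and 0.38, 0.82 and 1.79 in PS-MP. For Tef the log2 ratio was -0.62, 0.23 and 0.16 in water, near equality with Nfil3, and 1.4996, 1.84 and 2.58 in PS-MP. For Hlf it ran from -0.73 to -0.09 in water and from 0.73 to 1.54 in PS-MP. In water replicate 3 the Poisson intervals of Hlf (9.11 to 10.4 FPKM) and Nfil3 (9.24 to 11.6 FPKM) overlapped, so their order there lay within counting error.

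The make-up of the activator pool differed as well, by Dbp and Hlf rather than Tef. Tef made up 49.2 ± 0.98% of the summed activator FPKM with PS-MP and 49.998 ± 0.81% with water. The share of Dbp was 25.1 ± 2.77% with PS-MP and 8.32 ± 3.79% with water. For the share of Hlf the difference was the other way, with 25.7 ± 2.64% and 41.7 ± 4.33%. A share is relative to the sum, and the level of Hlf itself was higher with PS-MP (12.6 against 9.51 FPKM). These levels of mRNA are not levels of protein.

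**Figure D2:**
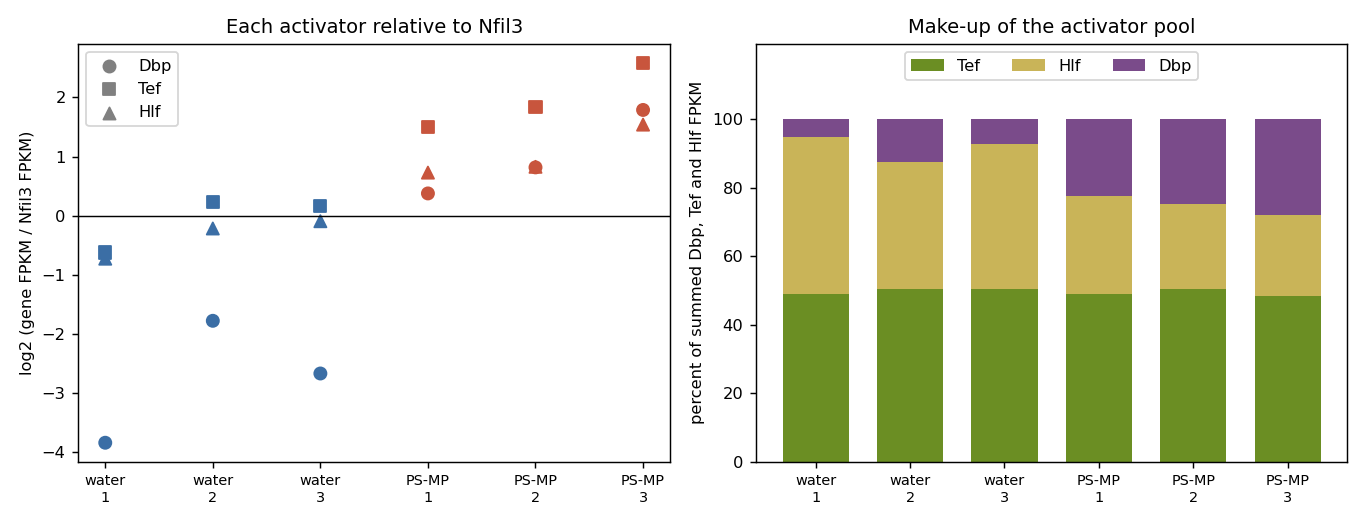
Left: log2 ratio of the FPKM of Dbp (circles), Tef (squares) and Hlf (triangles) to that of Nfil3 in each water (blue) and PS-MP (red) library, where 0 means equal levels. Right: percent of the summed Dbp, Tef and Hlf FPKM taken by each gene in each library; the Tef share lies between 48.5% and 50.6% in all libraries, while the Dbp share is larger in PS-MP.

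Dbp, Tef and Usp2 also varied together across single libraries, Hlf less closely, and Nfil3 inversely. Correlations were taken of the deviations from the group mean on the log2 scale, over 6 libraries. The deviations of a group cancel out, so fewer than 6 values are free, and differences between these correlations were not tested. With Dbp the correlations were 0.93 for Tef, 0.96 for Usp2, 0.60 for Hlf and -0.75 for Nfil3. The weakest pair was Hlf and Usp2, at 0.39. From low to high, Dbp ordered the libraries as water replicates 1, 3 and 2, then PS-MP replicates 1, 2 and 3, and Tef and Usp2 gave exactly that order. Of the 13299 genes tested, 97 (0.729%) had this order, these 3 included, and 56 (0.421%) had its exact reverse. Only genes whose groups do not overlap can have either order. These were 1470 genes higher in PS-MP and 1080 lower, so much of the match restates the group difference. Nfil3 was lowest in PS-MP replicate 3, where Dbp, Tef, Hlf and Usp2 were highest, and highest in water replicate 1, where those 4 were lowest. Hlf departed from the Dbp order by exchanging water replicates 2 and 3 and PS-MP replicates 1 and 2, and Nfil3 from its reverse by exchanging water replicates 2 and 3.

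Against all genes, Dbp and Usp2 had the second and the third largest absolute log2 fold change. The one gene with a larger change was Ciart, a repressor of CLOCK and BMAL1, at 2.65. Tef ranked 71, Nfil3 110 and Hlf 981 of 13299 genes. With limma-trend and Benjamini-Hochberg adjustment over all genes, 2 of the 5 genes, Dbp and Tef, had an adjusted p under 0.05, as did 0.489% of all genes tested. Both were higher in PS-MP, as were 0.241% of all genes, and 0 of the 5 were called lower, against 0.248% of all genes. The groups did not overlap for 5 of 5, as for 19.2% of all genes tested: 4 were higher in PS-MP, against 11.1% of all genes, and 1 was lower, against 8.12%. Since the 5 genes were assembled with this contrast known, nothing is read from these counts.

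**Figure D3:**
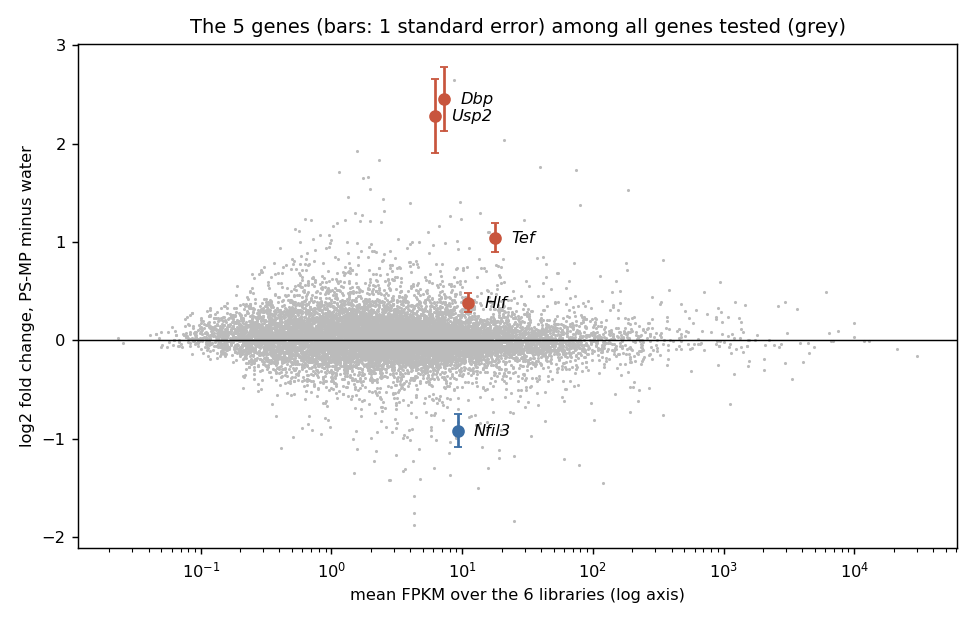
Log2 fold change (PS-MP minus water, on FPKM + 0.5) of the 13299 genes tested (grey) against their mean FPKM on a log axis, with the 5 genes marked and bars of 1 standard error. Dbp and Usp2 lie at the upper edge, at 2.45 and 2.28, Tef at 1.04, Hlf at 0.38 and Nfil3 at -0.92.

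Single libraries changed the size of the differences but not their direction, which the lack of overlap between the groups fixes. Without water replicate 2, the water library with the highest Dbp and Usp2, the log2 fold change was 2.81 for Dbp and 2.77 for Usp2. Without water replicate 1 it was 2.16 and 1.97. With any 1 library left out, Tef ran from 0.90 to 1.15, Hlf from 0.29 to 0.46 and Nfil3 from -1.04 to -0.77. The number of the 5 genes with an adjusted p under 0.05 in limma-trend was 0 to 2 in these fits: it was 2 (Dbp and Usp2) without water replicate 2 and 0 without any 1 of the other libraries.

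**Figure D4:**
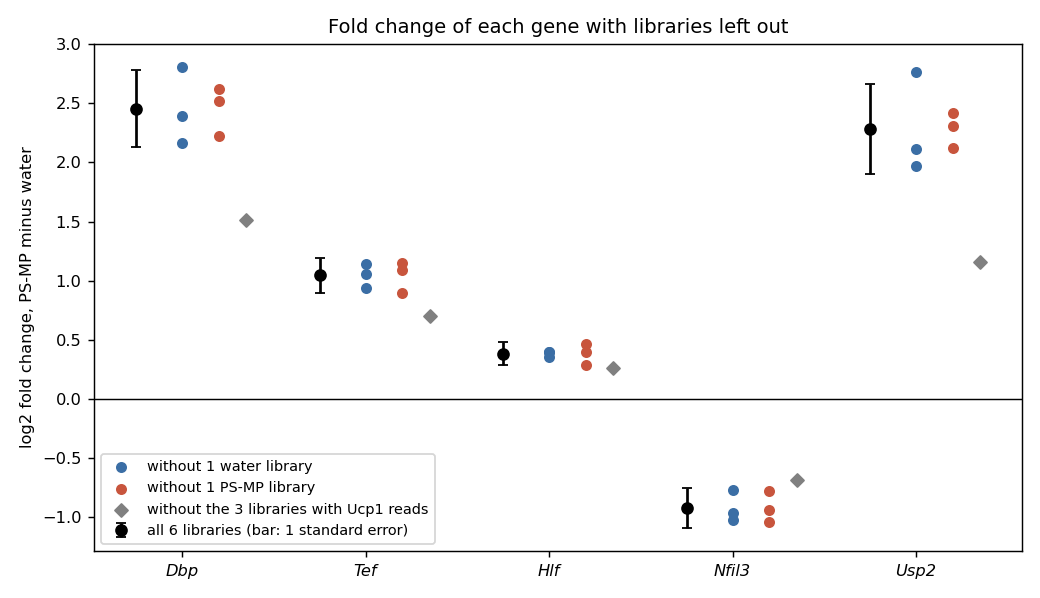
Log2 fold change (PS-MP minus water) of each gene with all 6 libraries (black, bar of 1 standard error), without 1 water library (blue), without 1 PS-MP library (red) and without the 3 libraries with Ucp1 reads (grey). All points of a gene lie on the same side of 0, and the grey points lie nearest to 0.

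Library totals ran from 13082210 to 16948343 reads. Liver markers were abundant throughout, with the 6 hepatocyte markers summing to 43893 to 46873 FPKM in water and 37288 to 43794 FPKM in PS-MP, lowest in PS-MP replicate 3. Forebrain neuron markers were uneven: 7 of 8 were higher in every PS-MP library than in any water library, against 11.1% of all genes tested. Their summed level was 1.54 to 1.70 FPKM in water and 2.95 to 35.7 FPKM in PS-MP. Gad1 and Stmn2 were at 0 in water. Of 4 oligodendrocyte markers 3 behaved in the same way (0.30 to 0.46 FPKM summed in water, 0.57 to 6.07 FPKM in PS-MP), and Mobp and Mog were at 0 in water. PS-MP replicate 3 had the highest sum of both lists and also the highest Dbp, Tef, Hlf and Usp2. Without it the log2 fold change was 2.22 for Dbp, 0.90 for Tef, 0.29 for Hlf, -0.78 for Nfil3 and 2.12 for Usp2. All 5 directions were thus the same, and the part of these brain transcripts in the remaining difference was not tested.

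Ucp1, the brown fat uncoupling protein, had at least 15 reads in water replicates 1 and 3 and PS-MP replicate 3 and was at 0 in the other libraries, as was Cidea, a lipid droplet gene of brown fat. The 4 brown fat markers summed to 101.4 to 172.0 FPKM in water and 63.6 to 88.7 FPKM in PS-MP, of which Elovl3, also a liver gene, was the main part. Of the 4, 0 were higher and 1 (Elovl3) was lower in all PS-MP libraries than in all water libraries. Over all genes tested, 11.1% were higher and 8.12% lower in this way, so nothing is read from the count. With the 3 Ucp1 libraries left out, a choice made after seeing the data that leaves water replicate 2 as the lone water library, the log2 fold changes were 1.52 for Dbp, 0.70 for Tef, 0.26 for Hlf, -0.68 for Nfil3 and 1.16 for Usp2. In such bulk samples, fewer cells of a type and less RNA per cell cannot be told apart.

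Overlapping genes touch 3 of the 5. Sphk2, a sphingosine kinase on the opposite strand, shares 539 exon bases with Dbp, 18.01% of the Dbp exon length. Sphk2 was at 12.1 to 13.4 FPKM in water and 10.3 to 11.7 FPKM in PS-MP, lower where Dbp was higher. Tef shares 2.45% of its exon length with the antisense gene Gm17597, which had at most 3 reads in a library. Usp2 shares 4.15% with Gm49380 and with Gm39325, at no more than 1 read in a library. No label says whether reads were counted by strand, so reads from shared bases cannot be told apart.

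The rest of the clock was read from lists written with earlier results of these data known, so counts of calls in them are a description. Over all genes tested, 0.241% were called higher and 0.248% lower. Among the partners of Dbp on the E-box, 2 of 12 tested genes were higher and 0 lower at an adjusted p under 0.05 with limma-trend over all genes, namely Per3 and Nr1d2. Per3, of the PERIOD repressors, rose to 2.93 ± 0.79 FPKM with PS-MP against 0.58 ± 0.11 with water, a log2 fold change of 1.65 (adjusted p = 0.0243 by limma). Nr1d2, which encodes the repressor REV-ERB beta, rose to 23.1 ± 0.82 FPKM against 13.4 ± 1.33 FPKM, a log2 fold change of 0.76 (adjusted p = 0.0243 by limma). The fold change was positive in 10 of the 12, with a median of 0.68 against 0.01 over all genes tested. Without the 3 Ucp1 libraries that median was 0.38.

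Ciart (2.65, adjusted p = 0.0567 by limma) and the cell cycle kinase gene Wee1 (0.99, adjusted p = 0.0918) did not pass. Ciart passed in 4 alternatives: with a pseudocount of 1 (adjusted p = 0.0449 by limma), with a CPM of at least 1 in 3 libraries (0.0452), with limma-voom on the recovered reads (0.0171) and without water replicate 2 (0.0381). Nr1d1, the REV-ERB alpha gene, had 21.1 ± 2.26 FPKM with PS-MP against 22.6 ± 3.65 with water, and Cry1 had a log2 fold change of -0.12. The D-box list of clock genes had 7 tested members, of which 6 are also in the E-box list, and its calls were the same 2 genes, Per3 and Nr1d2. Their median was 0.43, and its other member Rora, a nuclear receptor that activates RRE genes, had 0.23.

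The RRE element, named above for Nfil3, has its own list of clock genes. Of 5 tested genes 0 were higher and 1 was lower, against 0.248% of all genes tested. This gene, Arntl, encodes BMAL1. It fell to 1.07 ± 0.33 FPKM with PS-MP against 3.13 ± 0.32 with water, a log2 fold change of -1.23 (adjusted p = 0.0386 by limma). Npas2, a stand-in for CLOCK, had -0.99 (adjusted p = 0.0625 by limma) and Clock had -0.17. Npas2 passed with limma-voom (-2.31, adjusted p = 0.0489) and with robust empirical Bayes in limma (adjusted p = 0.0496). The median was -0.17. For comparison, the value of Nfil3 was -0.92.

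The liver genes known to depend on the PAR bZIP factors were also listed with earlier results of these data known, so nothing is read from their count. At an adjusted p under 0.05 with limma-trend, 0 of 14 tested were lower, against 0.248% of all genes, and 3 were higher, against 0.241%. They were Alas1, the first enzyme of haem synthesis (log2 fold change 1.73, adjusted p = 0.00831 by limma), Cyp2a5, a coumarin-oxidising P450 (1.53, adjusted p = 0.00831), and Por, the electron donor of the P450 enzymes (0.60, adjusted p = 0.0358). The other 11 did not pass and had log2 fold changes below 0, so that the median over the list was -0.31 although its calls in this fit were all higher. The lowest were the thioesterase Acot2 (-1.30, adjusted p = 0.12 by limma) and Cyp2b10, a P450 of xenobiotic metabolism (-1.18, adjusted p = 0.107). Both passed as lower with limma-voom (Cyp2b10 at -1.21, adjusted p = 0.043), where the list thus had 3 higher and 2 lower. Nr1i3, which encodes the xenobiotic receptor CAR, had -0.02. Reads of Acot1 and Acot2, and of Cyp2a5 and its neighbouring copy, can be divided between near-identical genes.

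Of 5 genes reported to be repressed by NFIL3, 0 passed in limma-trend and 4 had an unadjusted p under 0.05, as did 1737 of all 13299 genes tested. Per1 (0.43) and Per2 (0.75) had positive fold changes, the fasting hormone gene Fgf21 (-1.30) and the glucose-releasing phosphatase gene G6pc (-0.48) negative ones, and the gluconeogenic enzyme gene Pck1 had 0.08. With limma-voom on the recovered reads, Fgf21 passed (-1.40, adjusted p = 0.0472).

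The relatives of the 5 genes by protein class had mostly smaller fold changes. Of 18 other bZIP factors tested, 0 were higher and 1 was lower with limma-trend, against 0.248% of all genes tested. It was Atf5, a stress-response factor (log2 fold change -0.54, adjusted p = 0.0423 by limma). All 18 lay between -0.54 and 0.35, with a median of 0.02, so each lay closer to 0 than Tef, Nfil3 or Dbp, while Atf5 lay further from 0 than Hlf at 0.38. Cebpa, a C/EBP factor of hepatocyte identity, had the highest value, 0.35, close to the 0.38 of Hlf. The USP family was taken by symbol only, as every other gene with Usp followed by a number, Usp6nl included. Of these 55 genes 42 were tested, and 0 passed in limma-trend. An unadjusted p under 0.05 was found for 4 of the 42, a smaller share than the 1737 of 13299 over all genes tested. These 42 ran from -0.09 to 0.29 with a median of 0.05, against 2.28 for Usp2. The 4 with the smallest p were Usp12 (0.29), Usp36 (0.26), Usp35 (0.27) and Usp45 (0.23).

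The lists together held 93 different genes tested. Of these 7 passed (Alas1, Cyp2a5, Por, Per3, Nr1d2, Arntl and Atf5), against 0.489% of all genes tested. The number depended on single libraries. It was 2 without water replicate 1 (Alas1 and Cyp2a5), 5 without water replicate 2, 0 without water replicate 3, 4 without PS-MP replicate 1, 2 without PS-MP replicate 2 (Alas1 and Cyp2a5) and 3 without PS-MP replicate 3 (Alas1, Cyp2a5 and Per3). In the limma-trend fit that called 0, 32 of the 93 had an unadjusted p under 0.05, beside 1641 of all 13299 genes.

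**Figure D5:**
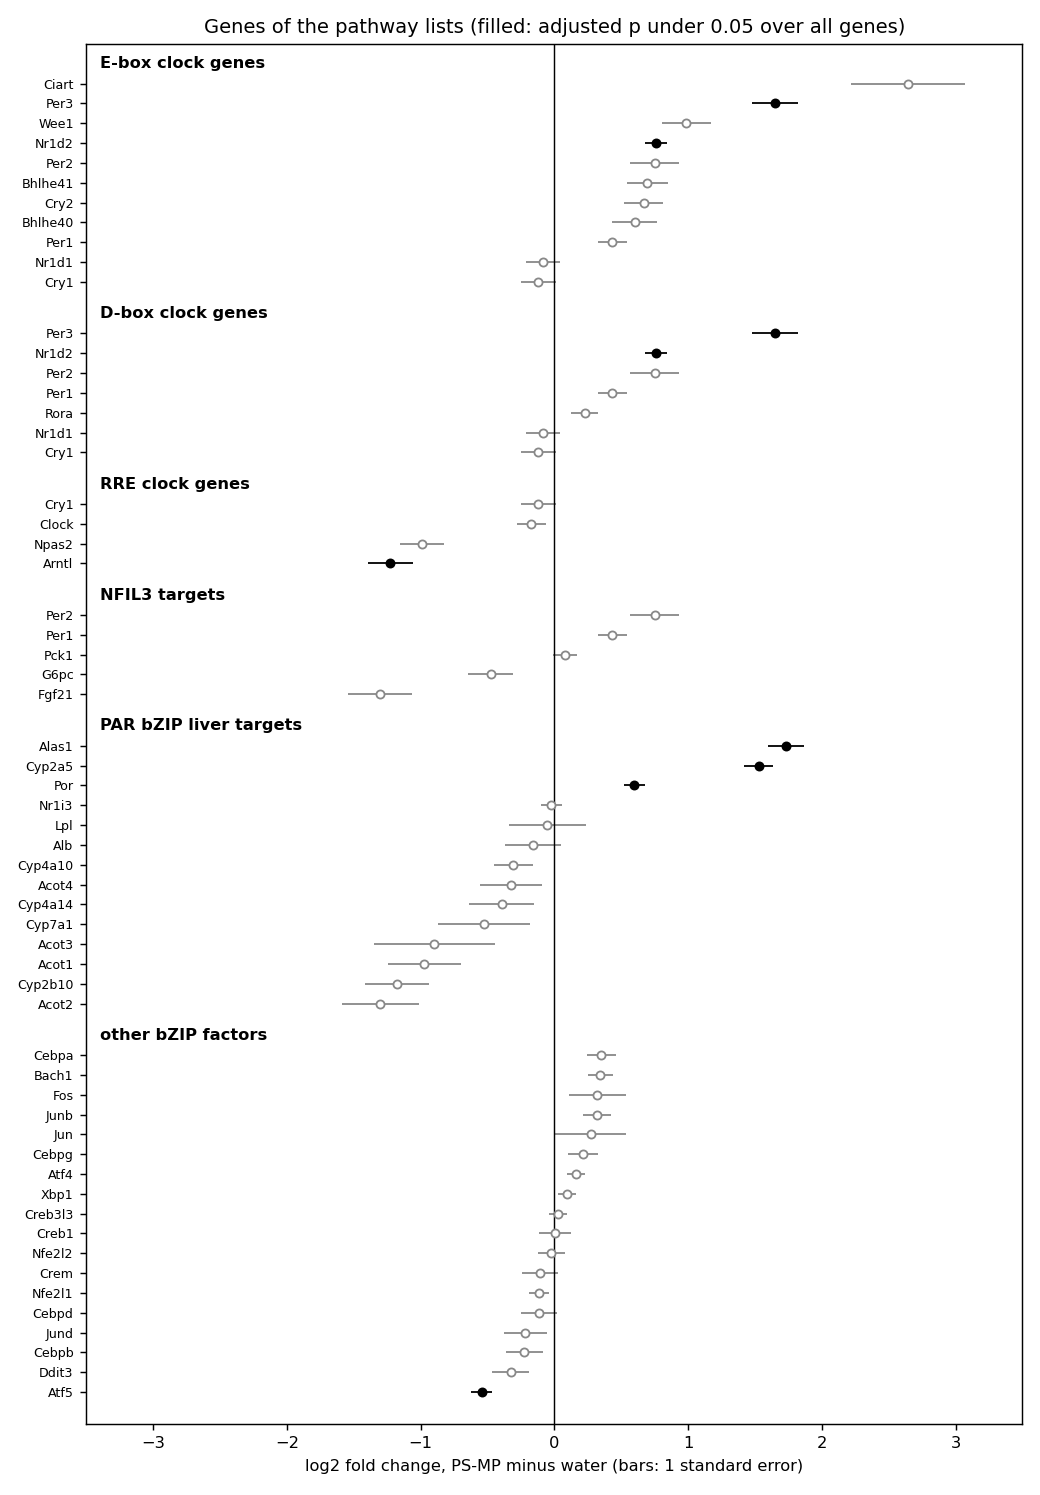
Log2 fold change (PS-MP minus water) with bars of 1 standard error for tested genes of 6 lists (1 listed gene is not drawn), filled where the adjusted p over all genes is under 0.05. E-box genes lie mostly above 0, from -0.12 to 2.65, while the PAR bZIP liver targets run from -1.30 to 1.73 and the other bZIP factors lie between -0.54 and 0.35.

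The genes most like Dbp were ranked by the Pearson correlation of log2(FPKM + 0.5) with Dbp over the 6 libraries, among 9309 genes with a mean of at least 1 FPKM. The groups are apart for Dbp, so these correlations mostly restate the group difference and are given as a description. With the group means taken out, those of the 6 highest still ran from 0.95 to 0.98, in the same libraries that ranked them. The 6 highest were P2ry2, a nucleotide receptor (0.997), Gpr146, a receptor of hepatocytes (0.995), Lpin1, a phosphatidate phosphatase (0.994), the sterol reductase gene Tm7sf2 (0.993), C2cd2l (0.992) and Ciart (0.992). They differ widely in size: Ciart had a log2 fold change of 2.65, P2ry2 of 0.98, Lpin1 of 0.77 and Gpr146 of 0.74, while C2cd2l had 0.35 and Tm7sf2 0.23. Lpin1 was at 26.9, 38.1 and 31.2 FPKM in water and 48.2, 55.0 and 61.6 FPKM in PS-MP, the library order of Dbp.

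The 4 genes most unlike Dbp by the same measure were AU022252 (-0.997), the phosphatase gene Phlpp1 (-0.994), Sh2b1 (-0.992), an adaptor of receptor signalling, and Rbm12b1 (-0.99). Their fold changes were small, from -0.45 for Rbm12b1 to -0.07 for Sh2b1. With the group means taken out, their correlations ran from -0.97 to -0.92. Nfil3, with a larger change, was not among the genes ranked because it is one of the 5. Its correlation with Dbp over the 6 libraries was -0.96, weaker than those of these 4 genes.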

How the data were processed

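Deposited FPKM values per gene, made by the authors, were used for 6 liver libraries. Per the submitters' processing notes, CASAVA, FastQC, MultiQC, Trimmomatic 0.38, HISAT2 2.1.0, featureCounts 1.6.0 and DESeq2 1.22.1 were named, with build GRCh38, whereas all 55536 identifiers matched mouse GENCODE M21 (GRCm38), used for symbols and lengths. Multiplied by exon length, all values gave whole reads within 0.001; these set depth and filters. Genes with at least 0.664 CPM (10 reads in a median library) in 3 libraries and 15 reads in all were tested (13299). limma-trend (limma 3.58.1, R 4.3.3) was run on log2(FPKM + 0.5) with group as the only term, with Benjamini-Hochberg adjustment at 0.05. It was tested on simulated data. Coding sequences were aligned locally with Biopython 1.88. Named genes are the members, listed genes that passed, in lists with no call the 4 with the smallest p, overlapping genes, and the 6 most and 4 least Dbp-like genes. Other listed genes that did not pass were named after their values were seen. A listed gene is counted in its lists but not reported here. The members and lists were chosen with earlier results of these data known. Correlations of deviations ran from -0.04 to 0.05 for same-numbered libraries and from -0.05 to 0.07 for the others. With 3 libraries in each group, they cannot settle whether replicate numbers pair the samples. Replicate pairs differed by 9.99 to 28.3 times counting noise (chi-square per degree of freedom).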

Additional observations from a re-analysis of the deposited data

Results flagged for a closer look

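Of 26 listed or marker genes left untested for their low reads, 3 had more reads in every PS-MP library than in any water library. These reads are not scaled to depth. By FPKM, 11.1% of all genes tested were higher in every PS-MP library, so nothing is read from the count. Slc17a7, of excitatory neurons, had 2, 0 and 0 reads in water and 14, 3 and 193 in PS-MP (210 together). Gad1, of inhibitory neurons, had 0 in water and 5, 3 and 79 in PS-MP (87 together). Mobp, of oligodendrocytes, had 0 in water and 10, 2 and 114 in PS-MP (126 together). Their part in the levels of Dbp, Tef, Hlf, Nfil3 and Usp2 was not tested.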

How the results depend on the processing

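In 16 alternatives to the fit, all 5 genes kept their direction, which is fixed by the groups not overlapping wherever only libraries, filter or pseudocount changed. Only the fit without the 3 Ucp1 libraries moved a log2 fold change of these genes past the replicate SD. It was chosen after seeing the data and assumes that the lone water library varies like the others, and gave 1.52 for Dbp, 0.70 for Tef and 1.16 for Usp2, with 0 genes changed (1037 at an unadjusted p under 0.05) and 0 listed genes (25). With 65 genes changed in the limma-trend fit, of which 7 are in the lists, no low-count rule gave 0 (2064 unadjusted) and 0 (29 unadjusted) over 26854 genes, and limma-voom 133 (59 of them shared) and 12. With the replicate block, 23 genes changed, 18 of them shared, and Acot2 was called lower. The block fit called Nfil3 of the 5 genes, and limma-voom called Dbp, Tef, Nfil3 and Usp2; robust empirical Bayes called Tef and the fit with no low-count rule called none. Without 1 library, 0 to 36 genes changed (1193 to 1776 unadjusted) and 0 to 5 listed genes. The cause of these differences was not tested. The low Dbp and Usp2 levels of water replicates 1 and 3 rest on 48 to 87 reads.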
